A study of Arabidopsis thaliana with 18 samples.

Results

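Alternative splicing was followed in 4 hormone-related genes of Arabidopsis thaliana leaves: AHP5 (AT1G03430), ARF1 (AT1G59750), GA3 (AT5G25900) and AT1G01260. Every listed splicing event whose identifier held one of these loci was taken, which gave 17 events of 6553 over all files, of which 10 were intron retentions, 6 were alternative acceptors and 1 was an alternative donor. Of the 5403 events that every file lists, 11 belonged to these genes. The genes were proposed with results of these same libraries known, and they are treated as selected on the PSI differences between accessions and Col-0. Those differences are given as a description, and the count of called events that accompanies them is printed beside its background only.

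PolyA RNA came from the first leaf of seedlings aged 14 days. The plants grew on MS plates with 1% sucrose, with days of 16 h at 22 °C and 100 µmol m-2 s-1 and nights of 8 h at 18 °C. The 9 groups were the accession Col-0, the accessions Bur-0, Kro-0, Ler-1 and C24, and the F1 hybrids Col-0 x Bur-0, Col-0 x C24, Col-0 x Kro-0 and Col-0 x Ler-1, with 2 biological replicates each. The labels name no transgene or treatment, and all 4 hybrids had Col-0 as a parent. Libraries held 3186952 to 6134488 reads over their listed events. Of the 7 mesophyll markers examined, 6 had an event in every file, and the deepest event of each held 2460 to 70518 RPM in every library, where RPM is the usual read count per megaread, scaled to all reads of the events that every file lists; GAPA had no such event. The guard cell markers FAMA and MYB60 stood at 13.6 to 45.4 RPM, and the markers examined for phloem, xylem, trichomes, seed and root, as well as KAT1, had no event in every file, so the tissue check covers mesophyll and guard cells only.

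The 4 genes act in different hormone pathways. In cytokinin signalling, histidine kinase receptors pass a phosphoryl group to histidine phosphotransfer proteins such as AHP5, which carry it to response regulators in the nucleus. ARF1 is an auxin response factor that binds auxin response elements in promoters and acts mainly as a repressor. GA3 encodes ent-kaurene oxidase, a cytochrome P450 early in gibberellin synthesis. AT1G01260, also named JAM2 in the annotation, is a basic helix-loop-helix factor that acts as a negative regulator of jasmonate responses.

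The sequences below are the Col-0 reference (RefSeq TAIR10.1), plus strand, 5′ to 3′, around the splice sites at which the groups differed. Capitals mark the first 2 bases (GT) and last 2 bases (AG) of the introns that the events use. The 3 AHP5 acceptors lie in chr1:848585-848690, between the first and last coding bases of the gene, and the first of them is inside the annotated intron. The ARF1 donors lie in chr1:21982971-21983010 and its acceptors in chr1:21983052-21983100, likewise between the first and last coding bases. The GA3 intron and its acceptors lie in chr5:9037873-9038020, with the last coding exon to the right of the first acceptor. The AT1G01260 acceptors lie in chr1:109391-109420, in the 5′ UTR.
AHP5 acceptors: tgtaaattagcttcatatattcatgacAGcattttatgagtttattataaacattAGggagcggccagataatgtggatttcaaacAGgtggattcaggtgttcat
ARF1 donors: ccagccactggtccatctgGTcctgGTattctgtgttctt
ARF1 acceptors: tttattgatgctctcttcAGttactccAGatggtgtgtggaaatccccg
GA3 intron: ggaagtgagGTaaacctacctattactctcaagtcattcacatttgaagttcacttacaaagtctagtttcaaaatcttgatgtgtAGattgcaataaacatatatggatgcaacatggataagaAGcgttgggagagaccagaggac
AT1G01260 acceptors: taattgttgttaaAGaaaatAGgggcaaga

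All 11 introns used by these events begin with GT and end with AG in the reference, including the 3 that no annotated transcript uses. In AHP5 the middle acceptor is the annotated one. The first acceptor keeps 28 nt more and the last keeps 31 nt less, and neither number is a multiple of 3. On the reference sequence the annotated AHP5 transcript reads 157 codons before its stop, the form from the first acceptor reads 69, the form from the last acceptor reads 86, and the retained intron reads 67. In GA3 the second acceptor removes 39 nt, which is 13 codons in frame, and leaves 496 of 509 codons. In ARF1 the donors are 6 nt apart and the acceptors 9 nt apart, both in frame, so the forms differ by 5 codons or fewer of 665, whereas the retained intron reads 465 codons before a stop. In AT1G01260 the acceptors are 7 nt apart, 189 nt and 182 nt before the coding sequence, and the annotation holds 3 transcripts: spliced at either acceptor, or unspliced.

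**Figure D1:**
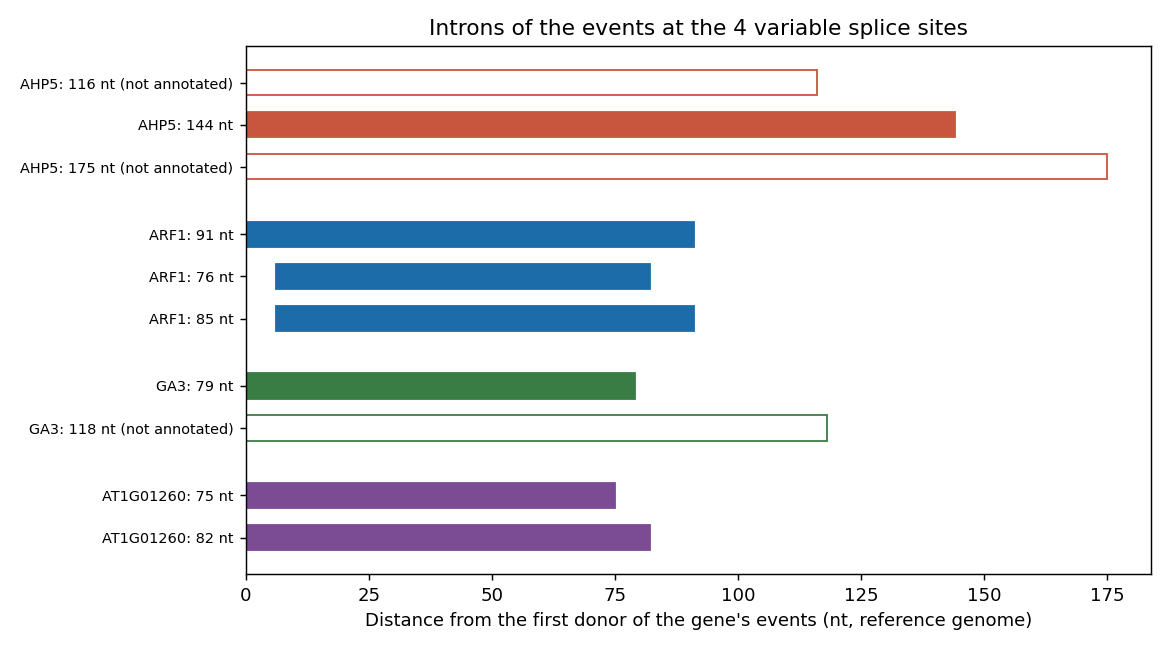
Introns of the events at the variable splice sites, drawn to scale in nt from the first donor of each gene on the reference genome; filled bars are introns of an annotated transcript and open bars are not annotated. The AHP5 introns are 116, 144 and 175 nt long and share a donor, and the GA3 introns are 79 and 118 nt long.

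In each event the reads of 2 forms were counted, and PSI, given here in percent, is the second form's share of all reads of the event, with 1 added to the total. The second form is the retained intron or the shorter of 2 introns. One event per gene is followed most closely: the one with the widest range of mean PSI among those with at least 10 reads in every library, or, for AHP5, where no event had that depth, the one with the most reads. The values below are mean ± SD of 2 libraries.

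AHP5 was spliced mostly at its annotated acceptor in every group except Bur-0, where most spliced reads used the first acceptor. PSI of the first acceptor against the annotated one was 73.9% and 80% in the Bur-0 libraries. Both Col-0 libraries were far lower, at 9.21% and 3.49%. It was 5.88% and 5.97% in Ler-1, and no read used the first acceptor in Kro-0 (0 of 71 reads, which allows up to 4.23%) or in C24 (0 of 14, which allows up to 21.4%; counting error only). The Bur-0 values lay above those of all other groups, and Ler-1 lay within the range of Col-0. C24 had 15 spliced AHP5 reads in all.

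Scaled to depth, Bur-0 had both more reads of one form and fewer of the other than Col-0. The first acceptor had 6.59 ± 0.301 RPM in Bur-0, against 0.902 ± 0.526 for Col-0. The annotated acceptor had 1.80 ± 0.570 RPM in Bur-0, against 13.4 ± 1.49 for Col-0. All 3 acceptors together gave 15.2 ± 0.443 RPM in Col-0, the highest of the accessions, and 11.04 ± 0.778 in Ler-1. The sum was 8.69 ± 1.295 in Bur-0, 8.25 ± 0.034 in Kro-0 and, at the low end, 2.26 ± 0.839 in C24. This sum leaves out reads counted as retained, which were more abundant in Bur-0 than in Col-0, so it is not the amount of AHP5 RNA. In whole leaves, fewer cells that express a gene and less RNA per cell cannot be told apart. The last acceptor stayed rare, with 10 reads in Col-0, 3 in Bur-0, 1 in C24 and none in Kro-0 or Ler-1.

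AHP5 reads counted as retained were also most abundant in Bur-0. In the retention event of the first acceptor they were 17.5 ± 0.754 RPM in Bur-0, 3.94 ± 0.679 in Col-0, 2.73 ± 0.603 in Ler-1 and 2.60 ± 1.46 in Kro-0. Retention measured at the annotated acceptor had a PSI of 87.7% ± 2.64 in Bur-0, 16.2% ± 6.66 in Col-0, 17.7% ± 0.665 in Ler-1 and 17.2% ± 14.0 in Kro-0. This PSI leaves out the reads spliced at the first acceptor, 66 in Bur-0 and 10 in Col-0, so it also varies with the choice of acceptor. Measured at the first acceptor, PSI was 72.0% ± 0.024 in Bur-0, within the range of Col-0 at 78.3% ± 11.2. It was 75.8% ± 3.48 in Ler-1 and 90.6% ± 4.42 in Kro-0. A transcript spliced at the first acceptor also runs across the annotated acceptor. The sources used here do not say whether such reads were counted as retained. The same holds for the further GA3 acceptor and for the second acceptors of AT1G01260 and ARF1. The C24 list does not hold the AHP5 retention events.

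**Figure D2:**
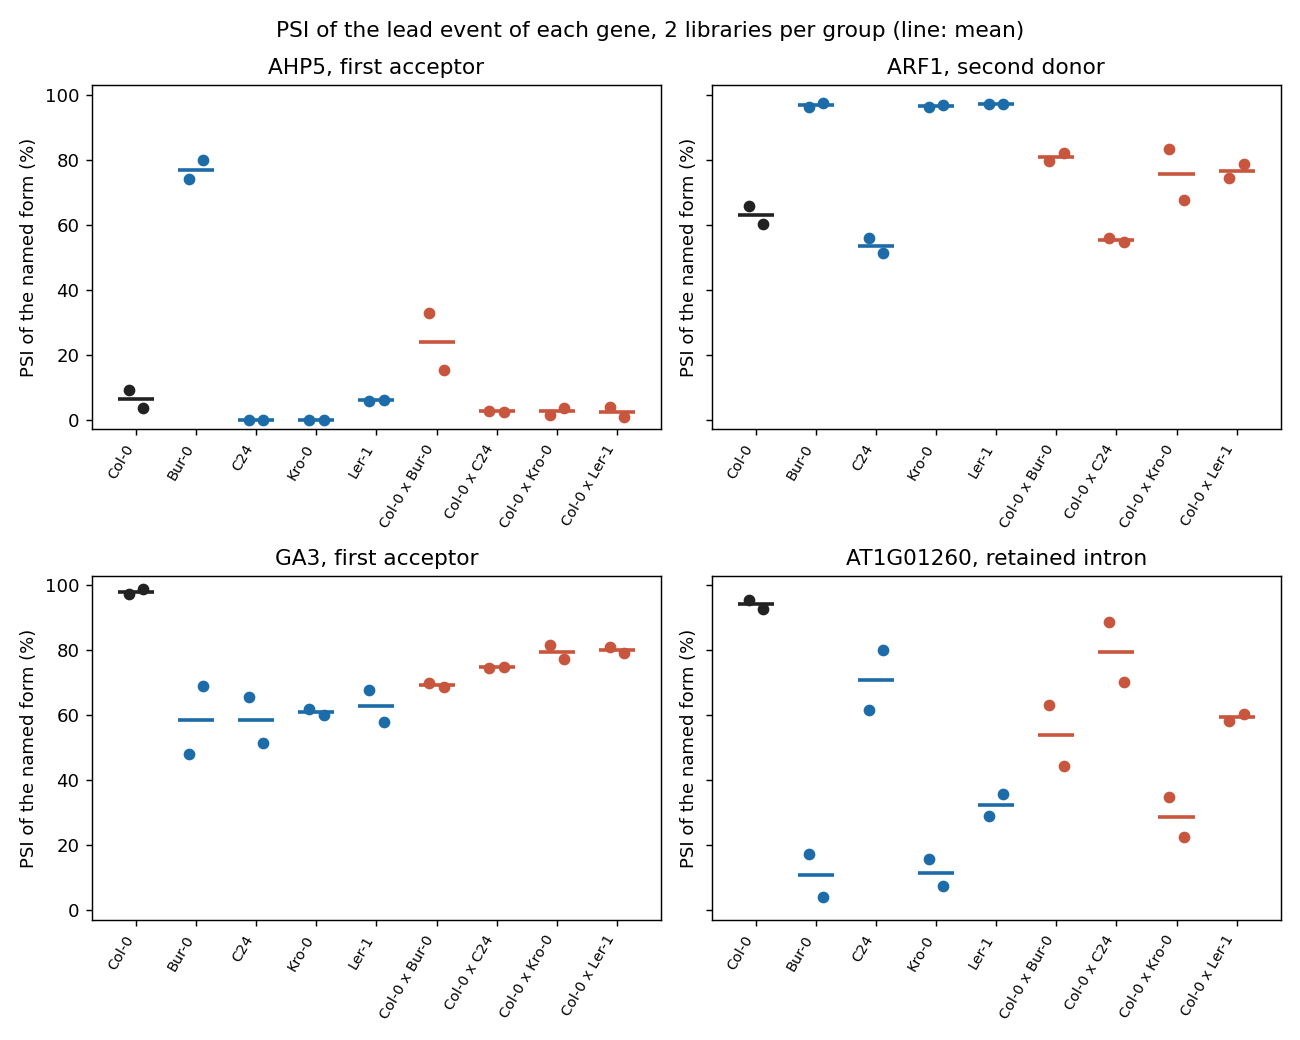
PSI in percent of the form named above each panel, for the 9 groups; each point is 1 library and each line the mean of 2 (black, Col-0; blue, other accessions; red, hybrids). Bur-0 stands alone for AHP5 at 77.0%, Bur-0, Kro-0 and Ler-1 lie at 96.6% to 97.2% for ARF1, and Col-0 lies above all other groups for GA3 and AT1G01260.

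In ARF1 the accessions fell into those that used both donors and those in which only the second was seen. PSI of the second donor, both forms being joined to the same acceptor, was 65.7% and 60.3% in Col-0 and 55.8% and 51.2% in C24. Bur-0 had 96.3% and 97.4%, Kro-0 96.2% and 97.0%, and both Ler-1 libraries 97.2%, values that lie below 100% only through the added 1. Of all spliced reads of this intron, the first donor had 50 of 437 in Col-0 (11.4%) and 38 of 230 in C24 (16.5%). It had none in Bur-0, Kro-0 or Ler-1, where 335, 323 and 318 such reads allow a share of at most 0.896%, 0.929% and 0.943%. Among the reads joined to the same acceptor, as in the PSI, the limits were 4.76%, 5.26% and 4.29%. Col-0 and C24 did not overlap, with C24 the lowest of the 9 groups.

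The ARF1 acceptors showed no such split. PSI of the first acceptor lay between 74.8% ± 4.05 (C24) and 81.9% ± 0.761 (Kro-0) over all 9 groups, and all spliced reads of the intron together ranged from 30.7 ± 5.21 RPM in Ler-1 to 43.5 ± 4.51 in the Col-0 x Bur-0 hybrid. Retention of the ARF1 intron, measured between the second donor and the second acceptor, was 21.7% ± 0.963 in Col-0, 22.3% ± 2.41 in Bur-0 and 19.0% ± 10.6 in C24. It was 4.71% ± 1.42 in Kro-0, and 0 of 70 reads in Ler-1 were retained, which allows up to 4.29%. The retained share of another ARF1 intron, chr1:21982194-21982418, ranged over the groups from 21.8% ± 0.561 (Col-0 x C24) to 42.8% ± 3.49 (Bur-0), with 30.8% ± 0.0728 in Col-0.

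GA3 split Col-0 from every other accession. PSI of the annotated acceptor was 97.3% and 98.8% in Col-0, where 1 read of 155 used the acceptor 39 nt further on. Bur-0 had 48.0% and 69.0%, C24 65.5% and 51.5%, Kro-0 62.1% and 60%, and Ler-1 67.7% and 58.1%. The 4 accessions overlapped in a chain and all lay below both Col-0 libraries. The further acceptor, which no annotated transcript uses, took 64 of 160 reads in Bur-0, 50 of 122 in C24, 49 of 129 in Kro-0 and 44 of 122 in Ler-1. Spliced reads of the intron as a whole stood at 13.9 ± 0.598 RPM in Col-0 and between 11.8 ± 1.47 (Ler-1) and 18.2 ± 3.38 (C24) in the other accessions. Retention up to the annotated acceptor, listed for Col-0, Bur-0 and their hybrid, was 3.64% ± 1.43, 21.2% ± 6.76 and 14.4% ± 0.439. Retention up to the further acceptor, listed for the same groups, ran the other way, at 95.9% ± 2.27 in Col-0, 50.4% ± 7.54 in Bur-0 and 67.5% ± 0.543 in the hybrid. In Col-0 72 reads were counted as retained up to the further acceptor and 6 up to the annotated one, and in Bur-0 66 and 25, so the level of GA3 retention depends on the event in which it is measured.

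Most AT1G01260 reads retained the 5′ UTR intron in Col-0, and few did in Bur-0 and Kro-0. Retention against splicing at the second acceptor had a PSI of 95.5% and 92.9% in Col-0. Bur-0 had 17.5% and 4%, Kro-0 15.8% and 7.41%, and Ler-1 29.2% and 35.7%. C24 lay between, at 61.5% and 80.0%. Reads spliced at the first acceptor, 13 in Col-0 and 12 in C24, are left out of this PSI. It therefore also varies with the choice of acceptor. These events held 11 to 39 reads per library, so single libraries are coarse. Retained reads numbered 47 in Col-0 against 12 in Ler-1, 8 in Bur-0 and 5 in Kro-0.

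The spliced AT1G01260 reads also differed in acceptor. In Col-0, 13 of 14 spliced reads ended at the first acceptor and 1 at the second. In Bur-0 1 of 56 ended at the first. None of 39 did for Kro-0, which allows up to 7.69%, and none of 24 for Ler-1, which allows up to 12.5%. C24 used both, with 12 of 19 at the first. Splicing at the second acceptor stood at 0.0883 ± 0.125 RPM in Col-0, 5.50 ± 1.29 in Bur-0, 4.50 ± 1.23 in Kro-0, 2.38 ± 1.38 in Ler-1 and 1.03 ± 0.112 in C24. Retention measured against the first acceptor alone was 74.2% ± 5.48 in Col-0 but rested on 9 reads in all for Bur-0, 5 for Kro-0 and 12 for Ler-1, so no order of the groups is read from it.

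**Figure D3:**
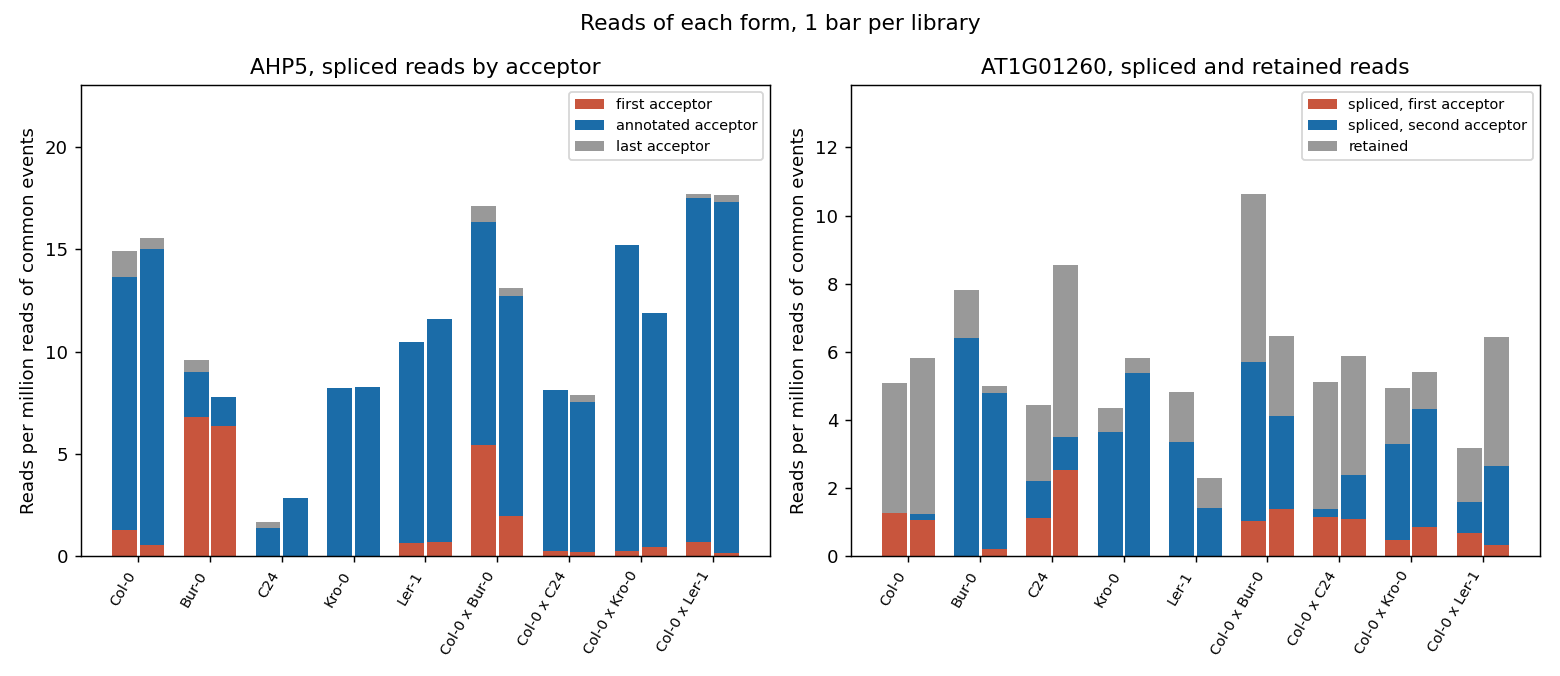
RPM of each form, relative to the common events, stacked, 1 bar per library in 9 groups; left, AHP5 spliced reads by acceptor; right, AT1G01260 reads spliced at either acceptor or retained. The first AHP5 acceptor makes up most of the bar in Bur-0 alone, and the second AT1G01260 acceptor does in Bur-0, Kro-0, Ler-1 and Col-0 x Kro-0.

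The length of these introns in each accession's own assembly, read from the event names, differed from the reference in 3 of the 4 genes. In GA3 both introns were 12 nt shorter in all 4 accessions (67 and 106 nt against 79 and 118 nt), with the 39 nt between the acceptors kept. In AT1G01260 both introns were 1 nt shorter in Bur-0, Kro-0 and Ler-1 and of equal length in C24. In ARF1 the introns at the variable sites were 5 nt longer in Bur-0 and Kro-0 and the intron chr1:21982194-21982418 was 1 nt shorter there, 224 against 225 nt. All were of equal length in C24 and Ler-1, although Ler-1 also had no read of the first donor. AHP5 showed no difference in length in any accession. The part of these length differences in the splicing values was not tested, and the bases of the accessions were not used here.

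For each accession, every common event that reached 10 reads in all libraries compared was compared with Col-0 by edgeR's quasi-likelihood test, with Benjamini-Hochberg adjustment over all events tested and a threshold of 0.05. Against Bur-0, 8.92% of 5137 events were called, and 4 of the 7 events of these genes that had the depth, 1 in each gene. Against C24, 5.98% were called, and 1 of 7, in GA3; AHP5 lacked the depth there. Against Kro-0, 5.25% were called, and 3 of 8, in ARF1, GA3 and AT1G01260. Against Ler-1, 6.99% were called, and 4 of 8, of which 2 were in ARF1. These counts use the differences on which the genes are treated as selected, and they share the Col-0 libraries, so nothing is read from them.

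The hybrid libraries do not enter the comparison of accessions with Col-0. Their values too were known when the genes were proposed, and how far they entered the choice is not recorded, so the hybrid tests are not independent support. For 12 of the 16 pairs of a lead event and a hybrid, the parents were at least 10 percentage points apart. In all 12 the hybrid mean lay between the parents, from 25.0% to 79.1% of the way from Col-0 to the other parent, with a median of 51.8%.

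AHP5 in Col-0 x Bur-0 had a PSI of 32.8% and 15.2%, or 23.98% ± 12.5, between Col-0 at 6.35% ± 4.05 and Bur-0 at 77.0% ± 4.30. Col-0 x C24 had 2.78% and 2.38%, Col-0 x Kro-0 had 1.52% and 3.57%, and Col-0 x Ler-1 had 3.85% and 0.943%. Both Col-0 x Bur-0 libraries lay above all 6 libraries of the other hybrids, which did not differ from each other beyond their spread. Retained reads at the first acceptor were 14.4 ± 1.58 RPM in Col-0 x Bur-0, against 5.09 ± 0.767 in Col-0 x Kro-0 and 5.99 ± 0.530 in Col-0 x Ler-1.

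AHP5 was the gene for which a hybrid differed from the other 3 past the threshold. In edgeR's test over the 8 hybrid libraries, PSI of the first acceptor in Col-0 x Bur-0 was higher by 21.5 percentage points (SE 8.85), a log2 odds difference of 3.55 with an adjusted p of 0.00629. Without Col-0 x Bur-0 replicate 1 the adjusted p was 0.189 and the difference 12.6 points, and limma gave 0.197 on PSI and 0.0502 on the logit, whereas DESeq2 gave 0.00134, so the call rests on that library and on the count models. In this comparison 1.48% of 5066 events were called for Col-0 x Bur-0, and 1 of the 8 tested events of these genes.

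Reads of the first ARF1 donor were present in every hybrid, 18 of 386 spliced reads in Col-0 x Bur-0, 53 of 366 in Col-0 x C24, 17 of 333 in Col-0 x Kro-0 and 21 of 363 in Col-0 x Ler-1. PSI of the second donor was 79.5% and 82.0% in Col-0 x Bur-0, 83.3% and 67.6% in Col-0 x Kro-0, and 74.5% and 78.7% in Col-0 x Ler-1. In Col-0 x C24, both of whose parents use the first donor, it was 55.9% and 54.7%, below the other 6 hybrid libraries. The difference of Col-0 x C24 from the other hybrids was -22.3 percentage points (SE 2.82) and did not pass the test, with an adjusted p of 0.106 in edgeR.

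All GA3 hybrid means lay between those of the parents, although the higher Bur-0 library (69.0%) lay within the range of its hybrid. PSI of the annotated acceptor was 69.9% and 68.7% in Col-0 x Bur-0, 74.6% and 75.0% in Col-0 x C24, 81.8% and 77.4% in Col-0 x Kro-0, and 81.0% and 79.2% in Col-0 x Ler-1. Col-0 x Bur-0 was the lowest, at -8.87 points (SE 1.01) from the other hybrids, with an adjusted p of 0.576 in edgeR. In its replicate 1 both acceptors had fewer reads in the retention events than in this event, a discrepancy that the SE does not cover. The Col-0 x Kro-0 and Col-0 x Ler-1 libraries overlapped.

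AT1G01260 hybrids spread from 28.9% ± 8.68 in Col-0 x Kro-0 to 79.6% ± 13.1 in Col-0 x C24. The libraries of Col-0 x Kro-0 were at 35.0% and 22.7%, those of Col-0 x Bur-0 at 63.3% and 44.4%, those of Col-0 x Ler-1 at 58.3% and 60.5%, and those of Col-0 x C24 at 88.9% and 70.4%. Col-0 x Kro-0 lay below all other hybrids without overlap, at -35.5 points (SE 7.56), and Col-0 x C24 lay above them, at 32.2 points (SE 9.998), but neither passed the test (adjusted p of 0.324 and 0.214 in edgeR). Reads of the first acceptor were seen in all 4 hybrids, 11 of 43 in Col-0 x Bur-0, 11 of 19 in Col-0 x C24, 6 of 34 in Col-0 x Kro-0 and 5 of 23 in Col-0 x Ler-1.

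One library disagrees with itself in these retention events. In Col-0 x Bur-0 replicate 1 the same junction had fewer reads in the retention event than in the event of alternative sites for 5 junctions of the 4 genes. Over all events 21.2% of the 991 junctions counted in both kinds of event were unequal there, 8.42% in Col-0 x C24 replicate 1 and 2.96% in Col-0 x Kro-0 replicate 2, and none in the other 15 libraries. With the count of the acceptor event, 18 reads in place of 10, AT1G01260 retention in that library would be 50% instead of 63.3%. GA3 retention there would be 12.05% instead of 14.1% up to the annotated acceptor and 55.1% instead of 67.9% up to the further one. The annotated GA3 acceptor had 60 reads in its retention event and 72 in the acceptor event, and the further one 17 and 30. The ARF1 junction from the second donor to the second acceptor had 23 and 35. PSI of the GA3 and ARF1 lead events uses the higher counts, and their values with the lower counts were not computed. The first AHP5 acceptor, on whose use the difference of Col-0 x Bur-0 from the other hybrids rests, is also among the 5 junctions, with 12 reads in its retention event and 21 in both events of alternative acceptors. With the 12 reads, an alternative chosen after seeing the data, that difference was 15.98 points, with an adjusted p of 0.0159 in edgeR.

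Among the other hybrids, 1.42% of events were called for Col-0 x C24, 0.395% for Col-0 x Kro-0 and 0.572% for Col-0 x Ler-1 against the remaining hybrids, and none of the 8 tested events of these genes was. At an unadjusted p under 0.05, 506, 419 and 415 of all 5066 events stood out by edgeR. Of the 8 tested events of these genes, 3, 2 and 0 did. DESeq2 called none of the 8, against 100, 32 and 47 of all 5066 events. Limma on the logit also called none, against 109, 36 and 92. With limma on PSI 79, 42 and 36 of all events were called, and 1 of them belonged to these genes. It was retention of the ARF1 intron chr1:21982194-21982418 in Col-0 x C24, at -14.7 points with an adjusted p of 0.0384, whereas edgeR gave 0.218.

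Against the mean of their parents, no event of these genes was called in any hybrid by edgeR, DESeq2 or limma. By edgeR 0.098% of events were called for Col-0 x Bur-0, 0.0597% for Col-0 x C24, 0.0795% for Col-0 x Kro-0 and 0.137% for Col-0 x Ler-1. In the same order DESeq2 called 10, 6, 8 and 6 of all events. Limma on PSI called 20, 11, 14 and 3, and limma on the logit 35, 20, 25 and 10. At an unadjusted p under 0.05 in edgeR, 329 of 5101, 369 of 5023, 366 of 5030 and 402 of 5118 of all events stood out. Among the events of these genes it was 2 of 7, 2 of 7, 3 of 8 and 3 of 8. The smallest adjusted p was that of GA3 in Col-0 x Bur-0, 0.103, at -8.98 points (SE 5.29) from the mean of the parents. AHP5 in Col-0 x Bur-0 was -17.7 points (SE 9.07) and AT1G01260 in Col-0 x Kro-0 -24.01 points (SE 6.52) from it. The points themselves were not what edgeR tested, which was the difference from the mean of the parents' log2 odds. That difference was -2.51 for this GA3 event, -0.645 for AHP5 and -2.35 for AT1G01260. In edgeR the adjusted p of the last 2 was 0.931 and 0.523. The direction on the odds scale can thus differ from that in PSI, and with no read of a form in a parent, fitted odds are not bounded. ARF1 in Col-0 x Bur-0 is such a case, at 0.854 points above and -2.14 on the log2 odds scale. GA3 in Col-0 x Kro-0 stood at 0.0408 points above and -1.76, with 1 of 155 Col-0 reads at the further acceptor. The same Col-0 reads enter the GA3 test in Col-0 x Bur-0, as do the GA3 counts of that hybrid that differ between kinds of event.

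**Figure D4:**
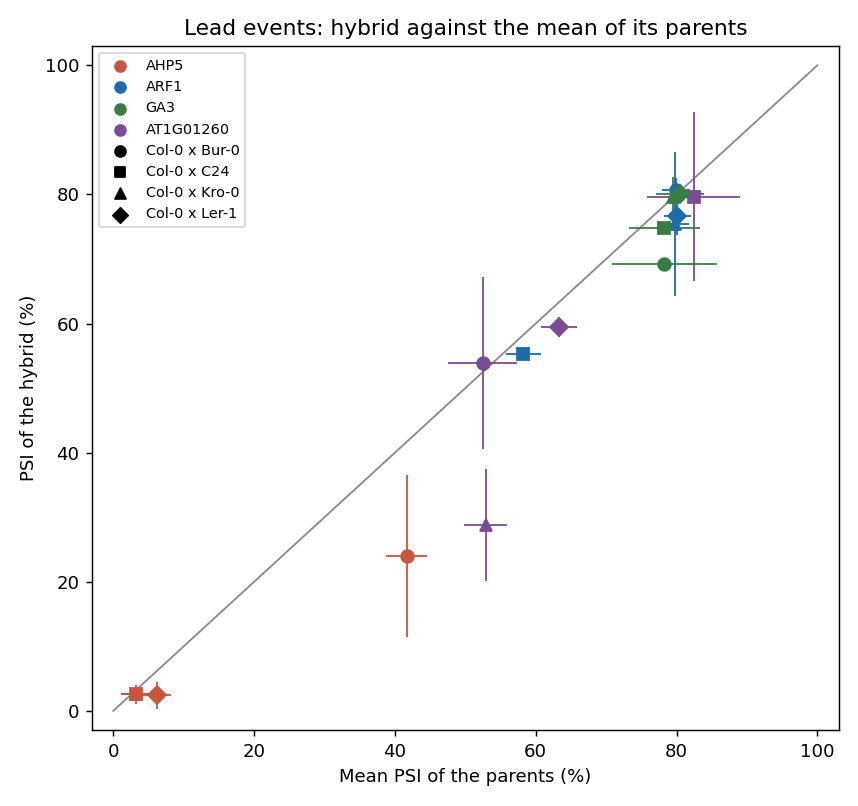
PSI in percent of each hybrid (vertical, mean and SD of 2 libraries) against the mean of its parents (horizontal, bars are the SD of that mean from the parents' SDs) for the 4 lead events; colours are genes, marker shapes are hybrids and the line marks equal values. AHP5 in Col-0 x Bur-0 (23.98% against 41.7%) and AT1G01260 in Col-0 x Kro-0 (28.9% against 52.9%) lie farthest below the line.

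In the order of mean PSI, neighbours often could not be told apart. For AHP5 the Bur-0 and Col-0 x Bur-0 libraries were separate from each other and from the rest. For ARF1 the groups C24 and Col-0 x C24 overlapped at the low end, and Kro-0, Bur-0 and Ler-1 at the high end. For GA3 the 4 accessions other than Col-0 overlapped, and Col-0 was separate at the top. For AT1G01260 Bur-0 overlapped Kro-0, Ler-1 overlapped Col-0 x Kro-0, Col-0 x Bur-0 overlapped Col-0 x Ler-1, and C24 overlapped Col-0 x C24.

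Few other genes of the pathways had a measurable event. Of 46 other cytokinin genes examined none had a common event, nor did 30 of 31 jasmonate genes; LOX2, a lipoxygenase of jasmonate synthesis, was the exception. Of 65 other auxin genes 6 had one, namely ARF2, IAA8, IAA12, IAA29, PIN7 and TPR1, and of 29 gibberellin genes KAO2 and SEC did. In the hybrid comparisons none of their events was called in either direction, against the background shares given above; the smallest adjusted p was 0.136 in edgeR. The largest auxin difference from Col-0 was 13.4 points, in Ler-1, and the LOX2 event differed by at most 0.0935 points. KAO2, an ent-kaurenoic acid oxidase that acts after GA3 in gibberellin synthesis, named after its values were seen, was lower in Bur-0 than in Col-0, at -26.5 points, with an adjusted p of 5.49e-05 in edgeR; in the other 3 accessions its difference was -7.75, -1.69 and -3.05 points, none of them past the threshold.

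Events of other genes with the most similar pattern were sought among 771 common events with at least 10 reads in every library and a range of at least 20 points, by Pearson's r over the 9 group means. The 4 hybrids share a parent with each other and with Col-0, so r is a description. For AHP5 these were events in AT2G38330 (r = 0.996), AT1G20890 (0.996) and MBD7 (0.993), each at 0% in Col-0, C24, Kro-0 and Ler-1 and at 71.2%, 47.6% and 39.0% in Bur-0. For ARF1 they were IQD30 (0.925), VAB2 (0.909) and AT3G53470 (0.843). For GA3 they were AT2G39280 (0.968), AT1G34630 (0.947) and AT1G70620 (0.938), the last at 99.3% in Col-0 and 34.4% to 45.3% in the other accessions. For AT1G01260 they were AT4G02120 (0.935), AT1G67700 (0.917) and AT5G18245 (0.908).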

How the data were processed

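Leaf polyA RNA of 9 groups was sequenced, 2 libraries each. The authors deposited, for each library, whole-number read counts of the 2 forms of each event and PSI as a fraction. The deposited PSI fraction equalled the second form's count divided by both counts plus 1 (largest difference 5.6e-16). Per the submitters' processing notes, TAIR10, HISAT2 and edgeR 3.0.8 were used; the counting rule and filters are not given in the sources used here.

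Events were joined over the libraries by their reference coordinates. Depth was a median of 63 to 123 reads per common event. Counts of both forms were tested with edgeR 4.0.16 (R 4.3.3), in a model of library effects plus the interaction of form and group, on 10 accession libraries for accessions against Col-0, 8 hybrid libraries for hybrids against each other, and all 18 for hybrids against the mean of their parents. In the edgeR fits a mean over groups is the mean of their log odds, whereas points are differences of mean PSI. DESeq2 1.42.0 and limma 3.58.1 were alternatives. The fits were also run on simulated data, whose outcome is not given here. Only events with intermediate shares were changed there, so forms with few or no reads were not covered. Limits for a count of 0 take 3 reads of the total and cover counting error only. Coordinates, sequences, symbols and codons came from the RefSeq TAIR10.1 files, in which 8 of the 11 introns of these events are annotated; chromosome coordinates were taken as those of TAIR10. The lead event of a gene and similar events were named by the rules given in the report. Genes, lists and tests were chosen with earlier results of these data known.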

Additional observations from a re-analysis of the deposited data

Results flagged for a closer look

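AHP5 in Col-0 x Bur-0 differed from the mean of the other 3 hybrids in use of its first acceptor, by edgeR's test of that difference (adjusted p of 0.00629). PSI was 32.8% and 15.2% there and 0.943% to 3.85% in the other 6 hybrid libraries. Col-0 x Bur-0 is the only hybrid with a Bur-0 parent. Its values were known when the genes were proposed, so the test is not independent support. The call also rests on replicate 1 of that hybrid and on the count models, as described in the Results.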

How the results depend on the processing

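Lead events of these genes held 5 to 121 reads per library. The AHP5 call in Col-0 x Bur-0 had an adjusted p of 0.197 with limma on PSI, 0.0502 with limma on the logit, and 0.00449 to 0.189 with 1 library left out; the cause was not tested. With the first-acceptor reads of the retention event it was 0.0159. No other lead event crossed the threshold in the hybrid comparisons under any setting run. In the settings in which a direction turned, the adjusted p was 0.978 or more; ranges in parentheses cover all libraries left out in turn. These were, with limma on PSI against the mean of the parents, AT1G01260 and ARF1 in Col-0 x Bur-0 and AHP5 and GA3 in Col-0 x Kro-0 (each 1); with 1 library left out, AHP5 in Col-0 x Bur-0 (0.775 to 1) and AT1G01260 in Col-0 x C24 (0.715 to 1) against the mean of the parents, and AT1G01260 in Col-0 x Bur-0 (0.873 to 1), AT1G01260 in Col-0 x Ler-1 (0.964 to 1) and ARF1 in Col-0 x Kro-0 (0.749 to 0.991) against the other hybrids. The range of GA3 PSI over the groups, 39.6 points, was 38.9 to 50.1 with 1 library left out. AT1G01260 retention in Col-0 x Bur-0 was 47.2% instead of 53.9% with the counts of the acceptor event, an alternative chosen after seeing the data.

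Counts of all called events moved more; groups are named by the accession other than Col-0, in the order Bur-0, C24, Kro-0, Ler-1. Against Col-0 the main counts were 458, 301, 266 and 359. With 1 library left out they were 205 to 328, 131 to 177, 153 to 196 and 169 to 225; DESeq2 gave 174 for Kro-0 and 221 for Ler-1, and limma on PSI 300 for Bur-0 and 220 for Ler-1. Against the other hybrids they were 75, 72, 20 and 29, and with 1 library left out 37 to 71, 14 to 58, 9 to 17 and 3 to 27; DESeq2 gave 32 for Kro-0 and 47 for Ler-1, limma on the logit 124, 109, 36 and 92, and limma on PSI 42 for Kro-0. Against the mean of the parents they were 5, 3, 4 and 7; 1 library left out gave 0 to 1 for Bur-0, 2 to 5 for Kro-0 and 2 to 4 for Ler-1, DESeq2 10, 6 and 8 for the first 3, limma on PSI 20, 11, 14 and 3, limma on the logit 35, 20 and 25 for the first 3, a fit of only the groups compared 8, 11, 2 and 3, and a minimum of 1 read 6 for C24. TMM factors moved the median log2 odds difference of all events by most in C24 against Col-0, from -0.06 to -0.36, and the share of higher calls there from 42.9% to 31.0%. Deviations of same-numbered libraries had correlations of -0.127 to 0.254 over 36 pairs of groups, above 0.1 in 12 of them and so not in every pair. The labels give the numbers no shared origin, so they were not taken as pairs; with a replicate block the counts were 112, 40 and 60 for C24, Kro-0 and Ler-1 against the other hybrids, 6 and 10 for C24 and Kro-0 against the mean of the parents, and AHP5 in Col-0 x Bur-0 had an adjusted p of 0.000363.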
